A study of Mus musculus with 108 samples.

Results

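Spermatogonial cells in culture differ from cell to cell in how much Gfra1 they hold, and the 35 cells of highest and the 35 cells of lowest Gfra1 level are compared here. The members were chosen by the measured Gfra1 value of each cell, and every cell is a library of its own. Within each of 4 culture lines the cells were ranked by the Gfra1 signal in RPM (reads per mega-read, M), and the top and the bottom 1 in 3 cells, rounded down, formed the Gfra1-high and the Gfra1-low cells. The series holds 30 cells of GSC1, 24 of GSC2, 30 of GSCLC1 and 24 of GSCLC4, and all but 1 GSC1 cell were ranked. To each side GSC1 gave 9 cells, GSC2 8, GSCLC1 10 and GSCLC4 8, and the other 37 ranked cells formed the middle. Gfra1 itself chose the cells, so its own level is a description and was not tested.

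GSC1 and GSC2 are lines of germline stem cells (GSCs), which are spermatogonial stem cells kept in culture, and GSC2 was derived from testes of its own, taken at postnatal day 7. GSCLC1 and GSCLC4 are lines of GSC-like cells (GSCLCs), and GSCLC4 came from reconstituted testes held at 34 °C for 3 weeks. All 4 lines carry an AcrAct_EGFP reporter on the background strain 129/SvJcl x C57BL/6, and all were grown in the same medium with GDNF at 10 ng/ml, bFGF at 10 ng/ml, EGF at 20 ng and LIF, so no cell here was without the ligand. High and low cells of a line therefore shared genotype, reporter and medium, and their age in culture was not given in the sources used here. The labels do not say whether a line is 1 clone. Cells were read by SC3-seq, a method that amplifies and sequences the 3′ ends of polyadenylated RNA from single cells.

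Gfra1 is the co-receptor that binds the ligand GDNF and presents it to the receptor tyrosine kinase Ret. Sertoli cells supply GDNF in the testis, and the signal runs through adaptor proteins to the RAS-ERK and PI3K-AKT pathways. It induces transcription factors such as Etv5, Bcl6b and Lhx1, which help to maintain spermatogonial stem cells, and active ERK also induces its own inhibitors of the Dusp and Spry families. In the testis Gfra1 marks the most primitive undifferentiated spermatogonia. Cells that lose it become progenitors with Neurog3, Sox3 and Nanos3, and then differentiate under retinoic acid and gain Kit.

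In the order GSC1, GSC2, GSCLC1 and GSCLC4, Gfra1 (chr19:58235581-58455946, mm10) ranged over the high cells from 379 to 820.4 RPM (median 397), 206 to 752 RPM (median 332), 326 to 682 RPM (median 469.7) and 361 to 702 RPM (median 474). Over the low cells, in the same order, it ranged from 7.74 to 95.9 RPM (median 56.8), 6.20 to 130.8 RPM (median 85.2), 36.8 to 158.3 RPM (median 69.6) and 12.6 to 123 RPM (median 63.9). Every low cell still held Gfra1 reads, an estimated 20 to 672, against 888 to 3563 in the high cells, so a low cell is a cell with less Gfra1 and not one without it. The groups lay close together at most of their edges. In GSC1 the lowest high cell had 379 RPM and the highest middle cell 327 RPM, and the lowest middle cell 118.1 against 95.9 RPM in the highest low cell. In GSC2 the lowest high cell had 206 RPM and the highest middle cell 203 RPM, and in GSCLC1 these cells had 326 and 325 RPM. In GSCLC4 the highest low cell had 123 RPM and the lowest middle cell 124 RPM. The mean over the high cells was 459 RPM and that over the low cells 68.9 RPM.

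**Figure D1:**
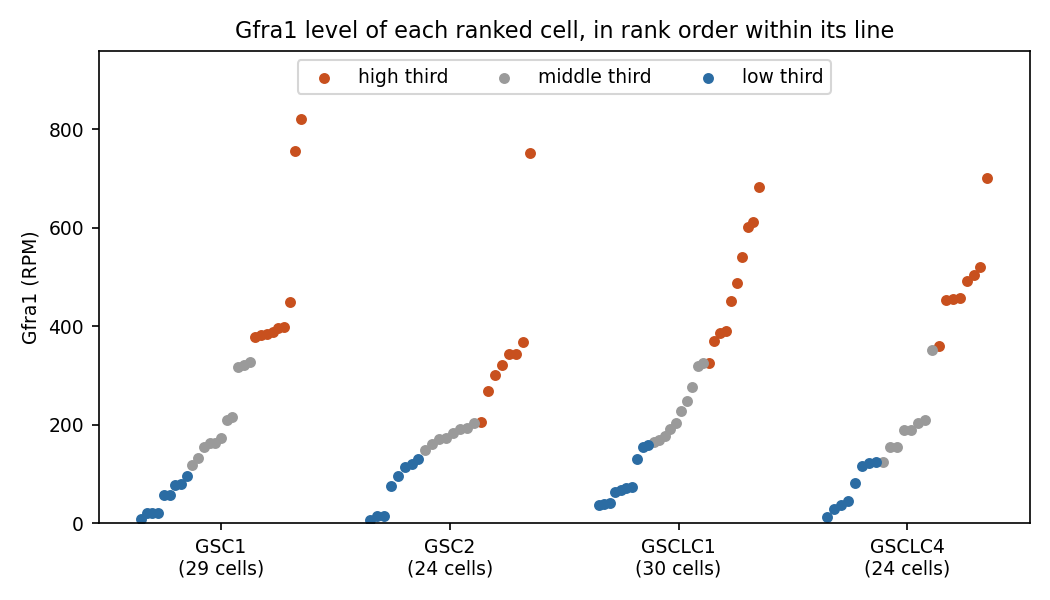
Gfra1 level of each ranked cell in RPM, in rank order within its line, colored by group (high, middle, low). The groups of GSC2 and GSCLC1 nearly meet between high and middle cells, while in GSC1 a step of 327 to 379 RPM parts them.

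All 4 lines carried germ cell RNA. Dazl, an RNA-binding protein of germ cells, had line means of 4103, 3349, 3386 and 3056 RPM in the high and 2933, 3557, 3774 and 3655 RPM in the low cells, and Ddx4, a germ cell RNA helicase, 822, 1084, 1213 and 834 RPM in the high and 714, 797, 713 and 838 RPM in the low cells, given in the order GSC1, GSC2, GSCLC1, GSCLC4 as in every such list below. Etv5 and Ret, which mark undifferentiated spermatogonia, were present in the high and the low cells of every line. Estimated depth ran from 2.00 to 6.04 M reads per cell (median 3.47 M), and 7305 to 10959 genes were detected per ranked cell. The columns hold no cell barcodes, no 2 cells had identical values, and the highest correlation between 2 cells was 0.839. One GSC1 cell with 5748 detected genes, no Gfra1 reads and 91374 RPM of spike-in RNA was left out by the rule, and no call appeared when it was kept. Of the marker lists of other testis cells, 3 of 17 Sertoli genes (Amh, Gata1 and Gdnf), 6 of 15 Leydig and peritubular genes (Cyp11a1, Cyp17a1, Hsd3b1 and Nr5a1 among them) and 8 of 18 spermatid genes (Prm1, Prm2 and Tnp2 among them) were at 0 in all 70 high and low cells. The other members were seen in some cells, and the summed level in a single cell reached 565, 379 and 337 RPM for the 3 lists among high cells and 364, 270.2 and 201 RPM among low cells.

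Neither depth nor the number of detected genes separated the high from the low cells in all 4 lines. Median depth was 3.83, 4.87, 3.18 and 3.33 M reads in the high cells and 3.71, 4.19, 2.89 and 3.46 M reads in the low cells, higher in 3 of 4 lines (two-sided exact permutation test over the 4 lines, p = 0.375). The smallest p that 4 lines allow is 2 of the 16 sign patterns, or 0.13. Detected genes had medians of 8731, 9181.5, 8321 and 9834.5 in the high and 8771, 9461, 8329 and 9808.5 in the low cells (p = 0.375, same exact test). With each cell thinned to 2000318 reads, which left out 0 ranked cells, the medians were 7835, 8532.5, 7872.5 and 9286.5 in the high and 8295, 8848.5, 8058 and 9267.5 in the low cells (p = 0.25, exact). Spike-in RNA, which grows in share as a cell's own RNA shrinks, stood at 48263, 32143, 42806 and 36285 RPM in the high and 34226, 33485, 43088.5 and 38053 RPM in the low cells (p = 1, exact). GSC1 was the line that stood apart there, with a higher spike-in median in its high cells, and the Spearman correlation of Gfra1 with spike-in RPM over its 29 cells was 0.49 against -0.083 to 0.17 in the other lines.

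The GSC1 cells fall into 2 runs of serial numbers in their titles, 65 to 80 and 129 to 150, and the labels do not say what these runs are. The first run held 7 of the 9 high cells and 2 of the 9 low cells of GSC1, and the second held 2 high and 7 low cells. Median Gfra1 was 379 RPM over the 13 cells of the first run and 158.7 RPM over the 16 cells of the second. In GSC1, Gfra1 level and run therefore largely coincide, and the part of the run in any GSC1 value was not tested directly. Results were recomputed with GSC1 cells ranked within each run, and without GSC1. The ranking within runs kept 32 of the 35 high and 33 of the 35 low cells. These counts include all cells of the other lines, as only the 9 GSC1 cells of each side could change.

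No gene passed the test between Gfra1-high and Gfra1-low cells. With limma on the 4 line means per side and the line as a block, 0 of 10266 genes had an adjusted p under 0.05 (0% called), and the smallest adjusted p was 0.424. At an unadjusted p under 0.05 there were 302 genes higher (2.94%) and 277 lower (2.7%) in the high cells, together 5.64% of all tested genes. These shares are the reference for the counts at this threshold in the gene lists below. Higher in 4 of 4 lines were 688 genes (6.7%) and lower in 4 of 4 lines 653 (6.36%). The median log2 difference over all tested genes was -0.00013, and 49.98% of genes had a positive difference. The values below therefore describe these 8 groups of cells, and none of the differences passed the test once adjusted over all 10266 genes. Log2 differences are high minus low on the scale of log2(mean RPM + 1), with the standard error (SE) of the fit, and understate differences of low genes.

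Receptor and adaptor genes did not follow Gfra1 as a group. Ret, the kinase that signals for Gfra1, had line means of 88.5, 135, 164.4 and 103 RPM in the high and 109.8, 83.5, 154.6 and 83.1 RPM in the low cells. The 2 ranges overlap, GSC1 differed the other way from the rest, and the log2 difference was 0.19 ± 0.26 (adjusted p = 0.968). Single cells ranged in Ret from 0.302 to 565 RPM (median 90.4) over the 35 high cells and 0 to 397 RPM (median 80.3) over the 35 low cells. A high Gfra1 level in these cells thus came with a wide range of Ret levels.

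Gab1, an adaptor that links receptor kinases to PI3K and ERK signalling, had line means of 28.9, 66.8, 55.8 and 54.2 RPM in the high and 11.4, 35.5, 10.9 and 24.9 RPM in the low cells, higher in each of the 4 lines (log2 1.38 ± 0.44, adjusted p = 0.864). Ptpn11, the phosphatase SHP2 that binds Gab1, had 43.7, 97.8, 64.2 and 62.8 RPM in the high and 103, 154, 85.5 and 82.4 RPM in the low cells, lower in each of the 4 lines (log2 -0.67 ± 0.29, adjusted p = 0.864). Gfra2, the neurturin co-receptor, stayed at or under 38.95 RPM in every line mean, with no steady direction. Ncam1, an alternative partner of Gfra1, was below the level filter, with line means of at most 5.61 RPM. Of the 18 genes of the GDNF receptor and ligand list 11 were tested, 5 had positive differences and the median was -0.018, with a sign that turned under 9 of the 20 alternatives (0.098 without GSC1). At the unadjusted threshold 1 was higher (Gab1) and 1 lower (Ptpn11).

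Feedback genes of ERK signalling mostly had higher values in Gfra1-high cells. Dusp6, the cytoplasmic phosphatase that switches ERK off (chr10:99263231-99267489, mm10), had line means of 174, 196, 143.6 and 140.6 RPM in the high and 71.9, 78.7, 55.9 and 69.8 RPM in the low cells. All 4 high means lay above all 4 low means, as for 1.38% of the 10266 genes tested, and the log2 difference was 1.23 ± 0.25 (adjusted p = 0.557). Dusp6, Egr2 and Marveld2 were among genes named for a small p in these same means, so that share is no reference for them. The means of the middle cells were 147.5, 110.9, 126 and 96.4 RPM, between the low and the high mean in each line. Single cells overlapped widely, with 4.41 to 438 RPM (median 139.8) over the 35 high cells and 0.428 to 208 RPM (median 52.7) over the 35 low cells.

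Etv5, the ETS transcription factor induced by GDNF and FGF, had 435, 202, 354 and 368 RPM in the high and 153.1, 322, 201 and 213 RPM in the low cells. It was higher in GSC1, GSCLC1 and GSCLC4 and lower in GSC2 (log2 0.61 ± 0.27, adjusted p = 0.864). The difference was 0.31 without GSC1 and 0.048 when cells were ranked by Gfra1 after accounting for the cell cycle lists. Spry4, an inhibitor of RAS activation, had 26.98, 18.3, 7.73 and 6.46 RPM in the high and 10.9, 11.9, 5.99 and 1.06 RPM in the low cells (log2 1.00 ± 0.69). Dusp4, a nuclear ERK phosphatase, had a log2 difference of 1.65 ± 0.98 that rested on GSC1 (40.2 against 0.191 RPM) and GSCLC1 (60.9 against 8.25 RPM). The 2 other lines had lower values in their high cells, and without GSC1 the difference was 0.50. Lrig1, which promotes the breakdown of receptor kinases, went the other way in every line, with 4.53, 5.25, 2.24 and 24.7 RPM in the high and 14.6, 11.96, 16.8 and 30.97 RPM in the low cells (log2 -1.33 ± 0.66).

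Of the 20 ERK feedback genes 18 were tested and 14 had positive differences, with a median of 0.44 against -0.00013 over all genes. At the unadjusted threshold 3 were higher (Dusp6, Etv5 and Il17rd) and 0 lower, against 2.94% higher and 2.7% lower over all tested genes. The summed level of the list had line medians of 2227, 1633, 1575 and 1839.5 RPM in the high and 1109, 1477, 1162 and 1152 RPM in the low cells, higher in 4 of 4 lines (exact permutation p = 0.13, the smallest possible). The list median was 0.28 without GSC1, 0.24 when ranked after the cell cycle lists, 0.27 when ranked after depth, detected genes and spike-ins, and 0.18 for the top against the bottom 50% of cells.

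**Figure D2:**
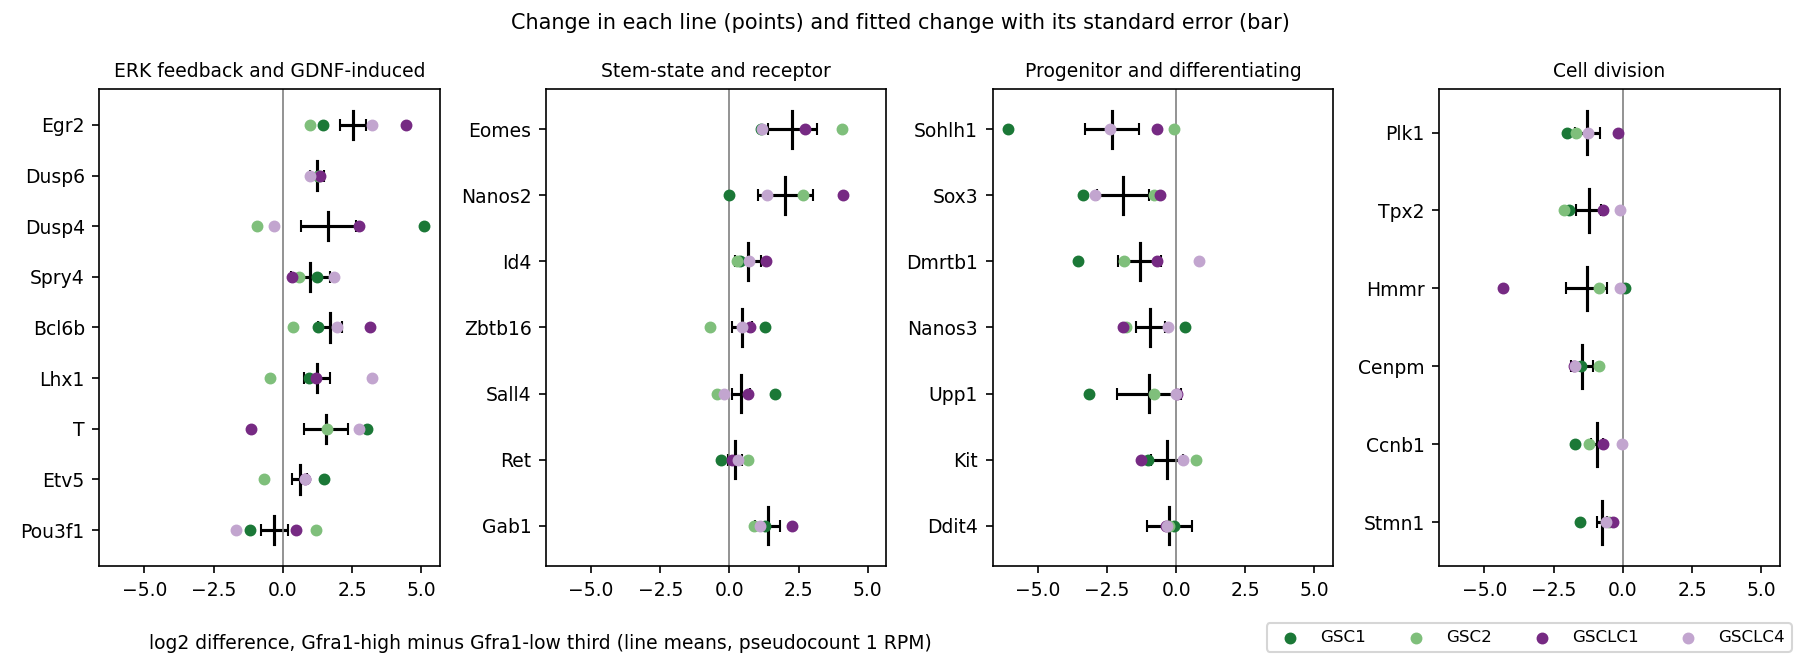
Log2 difference between the Gfra1-high and the Gfra1-low cells in each line (colored points) for 29 genes in 4 groups, with the fitted difference and its standard error (black). The points of Dusp6, Gab1 and Cenpm lie close together on 1 side of 0, while those of Dusp4, T and Dmrtb1 lie on both sides.

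Transcription factors of the stem state had positive differences for the most part. Egr2, a zinc finger factor induced through ERK (chr10:67534469-67542188, mm10), had line means of 206, 187, 170.6 and 110.5 RPM in the high and 73.8, 93.2, 6.90 and 10.9 RPM in the low cells. All high means lay above all low means, as for 1.38% of the genes tested (log2 2.53 ± 0.48, adjusted p = 0.557). GSCLC1 and GSCLC4 had little Egr2 in their low cells. Single cells ran from 0 to 503 RPM (median 141.3) over the 35 high cells and 0 to 248 RPM (median 11.9) over the 35 low cells, so cells without Egr2 occurred on both sides. Middle cells had 169.8, 191, 119.2 and 83.9 RPM, nearer to the high than to the low cells in every line.

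The difference in Egr2 was larger in the GSCLC than in the GSC lines by 2.60 ± 0.67 on the log2 scale, but this interaction did not pass either (adjusted p = 0.894). Over all genes the interaction of Gfra1 group with cell type was called for 0 of 10266 genes by limma (0%), and 495 (4.82%) had an unadjusted p under 0.05.

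Because Egr2 had the largest positive difference in the stem-state list, the 250 bases upstream of its RefSeq starts (GRCm38.p6) were searched for the CArG box, which serum response factor binds, and for the ETS core CCGGAA, on both strands. Both motifs were chosen after the values were seen. Of the 5 starts listed, 4 had a CArG box in their window, at 2 different places, and the 2 motifs did not overlap. The window chr10:67537316-67537565 on the plus strand held a box whose first base lay 72 bases upstream of the start, and 3 ETS cores. The window chr10:67537619-67537868 held another box, also with its first base 72 bases upstream, and 0 ETS cores, and the windows of 2 further starts nearby held the same box. They are shown within chr10:67537484-67537513 and chr10:67537787-67537816, with the box in capitals.
Egr2 upper CArG box: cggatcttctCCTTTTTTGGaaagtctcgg
Egr2 lower CArG box: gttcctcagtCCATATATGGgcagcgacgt
A CArG box occurred in 482 of 32851 promoter windows of that length (1.47%) and the ETS core in 12.03%. The window upstream of Dusp6 held neither. A match in the letters is a description of the sequence, and binding was not measured.

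Bcl6b, a GDNF-induced repressor needed for stem cell maintenance, had 51.2, 96.97, 135 and 112 RPM in the high and 20.6, 73.9, 14.3 and 28.1 RPM in the low cells, higher in all 4 lines (log2 1.69 ± 0.43, adjusted p = 0.864). GSC2 had the smallest difference and the ranges overlap. Lhx1, a LIM homeodomain protein that GDNF induces, had 160.2, 161.2, 69.7 and 58.8 RPM in the high and 83.2, 224, 29.6 and 5.47 RPM in the low cells (log2 1.22 ± 0.47), with GSC2 the other way. Its difference was 0.56 without GSCLC4.

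Eomes and Nanos2 are switched on in few cells, and T in few outside the high cells of GSC1, so their line means rest on few members. Eomes, a T-box factor of a Gfra1-positive subset, had 46.2, 16.2, 5.67 and 3.90 RPM in the high and 20.6, 0.0243, 0 and 1.18 RPM in the low cells (log2 2.28 ± 0.88). Nanos2, an RNA-binding protein that keeps spermatogonia undifferentiated, had 0, 38.96, 16.2 and 6.99 RPM in the high and 0, 5.41, 0 and 2.14 RPM in the low cells (log2 2.02 ± 1.00). T, the brachyury factor, had 122.5, 17.6, 6.34 and 5.72 RPM in the high and 14.1, 5.18, 15.2 and 0 RPM in the low cells (log2 1.56 ± 0.79). The median over cells was 0 RPM on both sides for each of the 3 genes, and the highest values were 157.9, 220 and 523 RPM in high cells and 174.6, 40.4 and 151.4 RPM in low cells. GSC1 had no Nanos2 on either side. With medians over cells in place of means, the differences were 0.055, 0.94 and 1.68. Each came from a single line, GSC1 for Eomes and T and GSC2 for Nanos2. Among GSC1 high cells the highest T values were in serials 65 to 80. The 2 GSC1 high cells of the later run had 0.309 and 0 RPM of T. The part of the run in T was not tested.

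Id4, a helix-loop-helix inhibitor that marks stem cells, had 18.1, 49.3, 28.3 and 24.3 RPM in the high and 13.7, 40.4, 10.8 and 14.6 RPM in the low cells, higher in 4 of 4 lines, by the most in GSCLC1 (log2 0.67 ± 0.49). Zbtb16, a repressor found in all undifferentiated spermatogonia, had 81.6, 51.7, 119.6 and 95.2 RPM in the high and 32.5, 83.6, 70.4 and 69.02 RPM in the low cells (log2 0.46 ± 0.35), and Sall4, a zinc finger factor of the same cells, 153.4, 140.4, 104.7 and 104 RPM in the high and 48.7, 191, 65.2 and 120 RPM in the low cells (log2 0.42 ± 0.33). In both, GSC2 went the other way, and for Sall4 so did GSCLC4. Foxo1, a forkhead factor of the stem state, had a log2 difference of 0.11 ± 0.18 and Pou3f1, a POU factor induced by GDNF, of -0.30 ± 0.47, both well within their errors.

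Of the 27 stem-state transcription factors 22 were tested and 18 had positive differences, with a median of 0.55 against -0.00013 over all genes. At the unadjusted threshold 6 were higher (Etv5, Bcl6b, Lhx1, Eomes, Sall1 and Egr2) and 0 lower. Over all tested genes 2.94% were higher and 2.7% lower. The line medians of the differences were 0.77, 0.18, 0.78 and 0.72. The list median was 0.53 with GSC1 ranked within runs, 0.64 when ranked after depth, detected genes and spike-ins, and 0.18 with medians over cells. The summed level was higher in 3 of 4 lines (exact permutation p = 0.25), with GSC2 the exception at 2300.3 against 2388 RPM. Of 15 tested GDNF-induced genes, a list that shares members with this one, 10 had positive differences (median 0.30), 4 were higher at the unadjusted threshold and 0 lower. That median depended on the settings: it was 0.071 at a pseudocount of 10, 0.074 with spike-in scaling and 0.048 when ranked after the cell cycle lists, but 0.61 at a pseudocount of 0.1 and 0.61 over genes at 20 RPM or more.

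Surface markers showed no common direction that the threshold picked out. Of 17 tested members 12 had positive differences, with a median of 0.23 (0.084 without GSC1), and 0 in either direction reached the unadjusted threshold. By line the median difference was 0, 0.15, -0.11 and 0.31. The summed level of the list, given under other observations, was higher in 4 of 4 lines (exact permutation p = 0.13, the smallest possible). Epcam, an adhesion protein of spermatogonia, had 188, 189, 65.8 and 188 RPM in the high and 260.1, 289.8, 132.5 and 160.8 RPM in the low cells (log2 -0.46 ± 0.24). Shisa6, a Wnt inhibitor of a primitive Gfra1-positive subset, had a log2 difference of 1.03 ± 1.03 that came from GSC1 (48.1 against 0.553 RPM) and turned to -0.29 without it. Tspan8, a tetraspanin reported on stem-cell-rich spermatogonia, had 17.0, 22.2, 56.3 and 90.9 RPM in the high and 17.0, 19.9, 11.8 and 25.4 RPM in the low cells (log2 1.03 ± 0.52), with the larger values in the high cells of the GSCLC lines. Cdh1 was below the filter, with line means of at most 0.759 RPM.

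Progenitor genes mostly had lower values in Gfra1-high cells. Sohlh1, a helix-loop-helix factor that drives spermatogonia towards differentiation, had 0.102, 6.87, 10.8 and 0.143 RPM in the high and 72.9, 7.29, 18.2 and 4.97 RPM in the low cells, lower in 4 of 4 lines (log2 -2.31 ± 0.98, adjusted p = 0.864). The difference came mainly from GSC1 and GSCLC4, where high cells held next to none. In GSCLC4 the low mean rested on a single cell with 39.7 RPM, and the other low cells were at 0 RPM. In GSC1 every low cell with Sohlh1 was in serials 129 to 150, and the low cells of serials 65 to 80 were at 0 RPM. The part of the run in Sohlh1 was not tested. The difference in Sohlh1 was -1.05 without GSC1 and -0.66 when cells were ranked after the cell cycle lists. Sox3, a SOX factor of progenitors, had 0.188, 0.352, 2.64 and 4.25 RPM in the high and 11.3, 1.36, 4.45 and 38.5 RPM in the low cells (log2 -1.92 ± 0.95), and the median over cells was 0 RPM on both sides.

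Nanos3, an RNA-binding protein of progenitors, had 37.5, 13.9, 7.34 and 20.1 RPM in the high and 29.6, 51.4, 30.9 and 25.1 RPM in the low cells (log2 -0.93 ± 0.53), with GSC1 the other way. Mycn, a MYC family factor, had 32.1, 22.7, 15.8 and 50.3 RPM in the high and 70.1, 52.5, 35.95 and 38.0 RPM in the low cells (log2 -0.76 ± 0.43), and GSCLC4 was the line that differed in direction. Upp1, uridine phosphorylase, and Ddit4, an inhibitor of mTOR signalling, were low throughout and had log2 differences of -0.98 ± 1.14 and -0.25 ± 0.81. Neurog3 reached 7.29 and 17.97 RPM in the high and low cells of GSCLC4 and was below the filter, as were Rarg and Lin28a.

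Of the 23 progenitor genes 16 were tested, and 14 had negative and 2 positive differences, with a median of -0.53. At the unadjusted threshold 2 were lower (Sohlh1 and Dmrt1) and 0 higher, against 2.7% lower and 2.94% higher over all tested genes. The summed level had line medians of 1024, 866, 631 and 895 RPM in the high and 1077, 1136, 1206 and 1069 RPM in the low cells, lower in 4 of 4 lines (exact permutation p = 0.13, the smallest possible). GSC1 had the smallest difference of the 4 lines. The list median was -0.51 with GSC1 ranked within runs, -0.49 without GSC1, -0.35 without GSCLC1 and -0.30 for the top against the bottom 50% of cells.

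Genes of later spermatogonia showed less of a pattern. Kit, the receptor of differentiating spermatogonia, had 7.73, 35.4, 5.12 and 27.5 RPM in the high and 16.8, 21.3, 13.9 and 22.7 RPM in the low cells (log2 -0.34 ± 0.58), 2 lines higher and 2 lower. Dmrtb1, which acts at the switch from spermatogonia to meiosis, had 0.0306, 3.34, 19.07 and 26.99 RPM in the high and 10.9, 14.9, 31.7 and 14.6 RPM in the low cells (log2 -1.32 ± 0.77), and its direction turned with medians over cells (0.85). Stra8, the retinoic acid target, was below the filter, with line means of at most 14.3 RPM. Ccnd2, a D-type cyclin, had 1013, 627, 814 and 774 RPM in the high and 496, 765, 981 and 879 RPM in the low cells (log2 0.073 ± 0.19). Over the 16 tested genes of differentiating spermatogonia 6 had positive differences (median -0.12, and -0.0092 without GSCLC1), 0 were higher and 1 was lower (Sohlh1, which both lists hold) at the unadjusted threshold. Of 12 tested genes of the retinoic acid pathway 2 had positive differences (median -0.35), 0 were higher and 1 lower. The negative median of that list rested on GSC2: it was 0.0066 without GSC2, with 6 of 12 positive, and -0.62 without GSC1. Rbp4, a retinol carrier, had 7.27, 15.8, 29.7 and 0.151 RPM in the high and 7.93, 25.3, 36.005 and 38.9 RPM in the low cells (log2 -1.54 ± 0.81), and Dhrs3, a retinal reductase, had 15.1, 3.34, 14.1 and 3.10 RPM in the high and 27.7, 1.12, 0.248 and 0.527 RPM in the low cells (log2 1.31 ± 0.95).

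**Figure D3:**
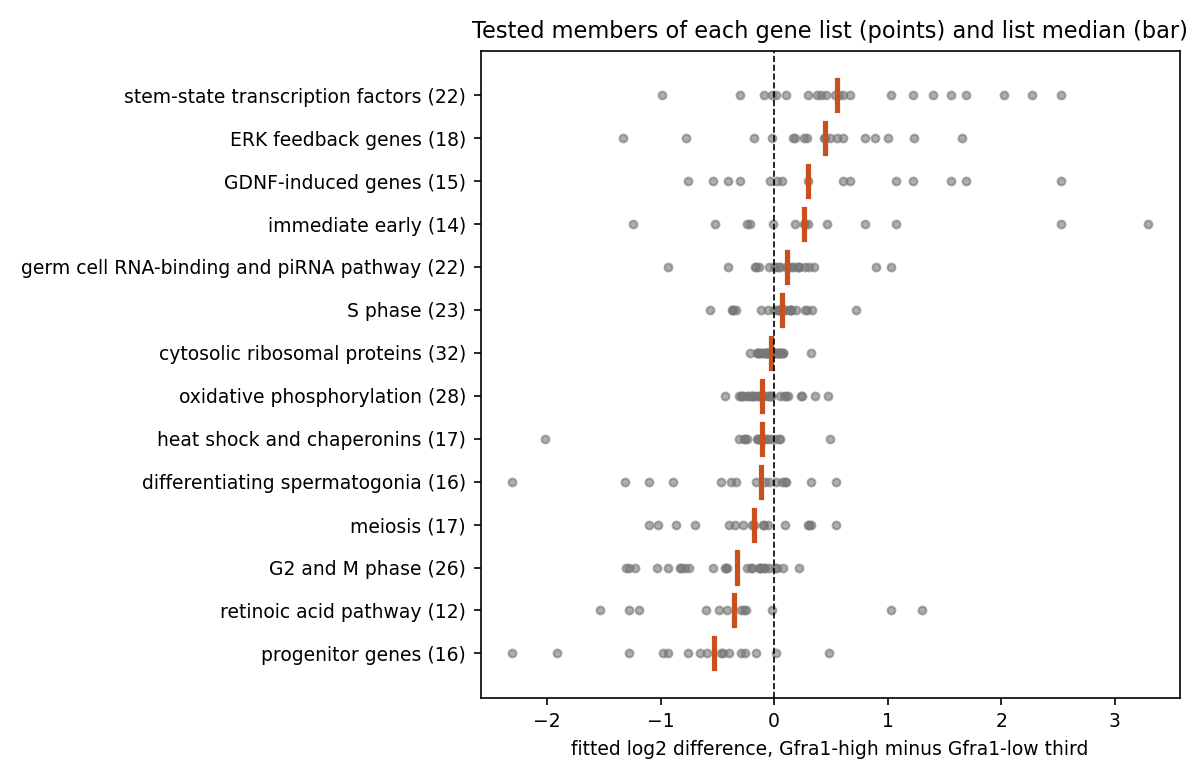
Fitted log2 difference between Gfra1-high and Gfra1-low cells for the tested members of 14 gene lists (points, number tested in brackets) and the median of each list (bar). Among the 14 lists shown the medians run from -0.53 for progenitor genes to 0.55 for stem-state transcription factors. Of the lists not shown, the spermatid list had a higher median of 1.13 (6 tested). The blood and endothelial list had 0.74 (2 tested).

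Genes of cell division had lower values in Gfra1-high cells, chiefly in GSC1. Ccnb1, the cyclin B1 that drives entry into mitosis, had line means of 194, 216, 253 and 462 RPM in the high and 649, 508, 417 and 477 RPM in the low cells. High cells were lower in GSC1, GSC2 and GSCLC1, GSCLC4 was nearly equal, and the log2 difference was -0.93 ± 0.23 (adjusted p = 0.812). It became -0.35 when cells were ranked after the cell cycle lists. For Ccnb1 46.3% of the values above 0 were not whole reads, as can occur where reads are shared with other loci, so its level is uncertain.

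Plk1, the polo kinase of mitosis, had 14.2, 7.04, 56.7 and 25.4 RPM in the high and 60.9, 24.7, 63.7 and 61.7 RPM in the low cells (log2 -1.28 ± 0.45). Tpx2, a spindle assembly factor, had 12.7, 9.999, 49.5 and 47.1 RPM in the high and 51.9, 47.2, 82.0 and 50.7 RPM in the low cells (log2 -1.23 ± 0.45). Hmmr, a spindle protein, had a log2 difference of -1.30 ± 0.74 that rested on GSCLC1 (0.573 against 30.6 RPM). All 26 genes of the G2 and M phase list were tested, of which 4 had positive differences, and the median was -0.33. At the unadjusted threshold 7 were lower (Ccnb1, Top2a, Plk1, Cdc20, Tpx2, Ube2c and Cks2) and 0 higher. Over all tested genes 2.7% were lower and 2.94% higher.

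By line the median difference of the G2 and M phase list was -1.12, -0.33, -0.53 and 0.16, lowest in GSC1 and positive only in GSCLC4 among the 4. It was -0.072 without GSC1, -0.30 with GSC1 ranked within runs, and 0.037 when cells were ranked after the cell cycle lists, an alternative that removes the relation by its construction. With means of log2 over cells it was -0.83, and with medians over cells -0.87. The summed level had line medians of 2549, 2550.2, 2826 and 3937 RPM in the high and 5083, 3186, 4339.6 and 3044 RPM in the low cells (exact permutation p = 0.375). Spearman correlations of Gfra1 with the sum, over the cells of a line, which share a medium but in GSC1 come from both runs of serial numbers, were -0.42, -0.15, -0.38 and -0.0096 over 29, 24, 30 and 24 cells, nearest to 0 in GSCLC4.

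**Figure D4:**
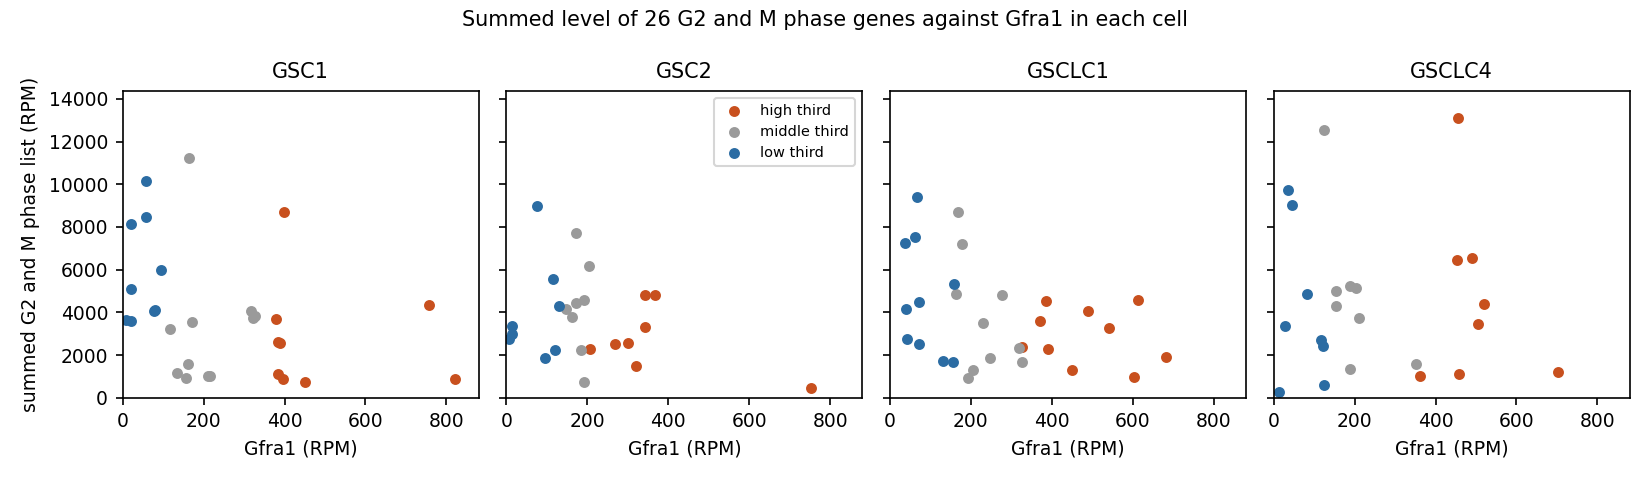
Summed level of the 26 genes of the G2 and M phase list in RPM against Gfra1 in RPM for each ranked cell, 1 panel per line. Cells of high sum lie mostly at low Gfra1 in GSC1, while in GSCLC4 the cell of the highest sum, 13081 RPM, is a Gfra1-high cell.

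Replication genes did not follow. Of 23 tested S phase genes 15 had positive differences (median 0.072, and -0.027 without GSC2 and -0.027 without GSCLC4), with 0 at the unadjusted threshold in either direction, and the summed level gave an exact permutation p of 0.5. Cdc6, which loads the replicative helicase, had 32.2, 55.5, 38.1 and 58.0 RPM in the high and 23.6, 22.98, 35.2 and 26.3 RPM in the low cells, higher in 4 of 4 lines (log2 0.72 ± 0.42). Rrm2, a ribonucleotide reductase subunit, had a log2 difference of -0.56 ± 0.54.

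Outside the lists the rule named the 12 genes per direction with the smallest p among those at 20 RPM or more that differed the same way in 4 of 4 lines, none of which passed the adjusted threshold. Marveld2, which encodes tricellulin of tight junctions (chr13:100595957-100616971, mm10), had line means of 176.3, 251, 292 and 271 RPM in the high and 70.8, 132.3, 102 and 85.7 RPM in the low cells. All high means lay above all low means, as for 1.38% of the genes tested (log2 1.35 ± 0.23, adjusted p = 0.424). Single cells ran from 0 to 813 RPM (median 208) over the 35 high cells and 0.243 to 597 RPM (median 54.5) over the 35 low cells. Comparing the top with the bottom 25% of cells, it was the only gene called in any of the 20 alternatives (adjusted p = 0.0392).

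Abr, a regulator of small GTPases, had 167.03, 188, 342 and 140.9 RPM in the high and 51.1, 118.7, 130.1 and 54.8 RPM in the low cells (log2 1.27 ± 0.25). Mpzl2, an adhesion protein of epithelia, had 535, 597, 194 and 149.5 RPM in the high and 279, 222, 132.8 and 78.9 RPM in the low cells (log2 0.95 ± 0.20). The levels of Mpzl2 in the GSC lines were above those in the GSCLC lines on both sides, and within each line the high cells had more. Tmem132e, Armc10, C1d, Zc3hav1l and Ccdc115 had log2 differences of 1.90, 1.09, 1.70, 1.82 and 1.35. Egr2, Dusp6 and Bcl6b were also among the 12. For C1d, a cofactor of the nuclear exosome, the line means were 128.7, 54.8, 119.6 and 79.1 RPM in the high and 13.4, 22.1, 45.6 and 40.1 RPM in the low cells.

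Among genes lower in high cells, Zfp839, a zinc finger gene, had 13.1, 3.26, 14.4 and 9.17 RPM in the high and 61.4, 32.3, 69.9 and 50.7 RPM in the low cells (log2 -2.41 ± 0.48). Cbln1, a secreted synapse organizer, had 8.14, 3.95, 10.3 and 9.17 RPM in the high and 34.6, 52.2, 42.3 and 34.8 RPM in the low cells (log2 -2.28 ± 0.55). Stmn1, stathmin, which destabilizes microtubules, had 242, 402, 452 and 406 RPM in the high and 703, 572, 583 and 623 RPM in the low cells (log2 -0.76 ± 0.18). In these 3 genes every low mean lay above every high mean, as for 1.29% of the genes tested. They were named for a small p and a shared direction in these same means, so that share is no reference for them.

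Cenpm, a centromere protein, had 27.7, 18.6, 17.8 and 30.9 RPM in the high and 80.8, 34.6, 63.7 and 104 RPM in the low cells (log2 -1.47 ± 0.39). Cycs, cytochrome c, had 661, 515, 519 and 628 RPM in the high and 747, 773, 745 and 867 RPM in the low cells (log2 -0.44 ± 0.12). Ccng1, a cyclin induced by p53, had 126, 247, 61.1 and 112.5 RPM in the high and 201, 313, 131.3 and 296 RPM in the low cells (log2 -0.87 ± 0.23), lower in each line although the ranges overlap across lines. Lonrf3, Phf16, Snhg4 and Ptma had log2 differences of -1.39, -1.43, -1.06 and -0.25. LOC100861649 had -0.34, but 86.1% of its values above 0 were not whole reads, so its level is uncertain. Adjusted p-values of these 12 genes ran from 0.557 to 0.864.

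The middle cells took no part in naming genes by high against low values. They did enter the likeness to Gfra1 described below, which also named Marveld2, Abr, Egr2, Bcl6b, Tmem132e, Ccdc115, Rnf17, Cbln1 and Cycs. At most the place of the middle mean is new here. Most genes were named because high and low cells differed the same way in 4 of 4 lines. A middle mean between those of the low and the high cells, in rising order, was found in at least 3 of 4 lines for 199 genes (1.94%), and in falling order for 215 (2.09%), shares over all genes that are no reference for genes named in that way. Marveld2, Dusp6, Tmem132e, Armc10, C1d and Ccdc115 were in rising order in 4 of 4 lines, and Cbln1 and LOC100861649 in falling order in 4 of 4. Egr2, Gab1 and Ddx4 were in rising order in 3 lines, Bcl6b in 2 and Ret in 0. Sohlh1 was in falling order in 2 lines, and in GSC2 and GSCLC1 the middle cells had the highest mean.

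**Figure D5:**
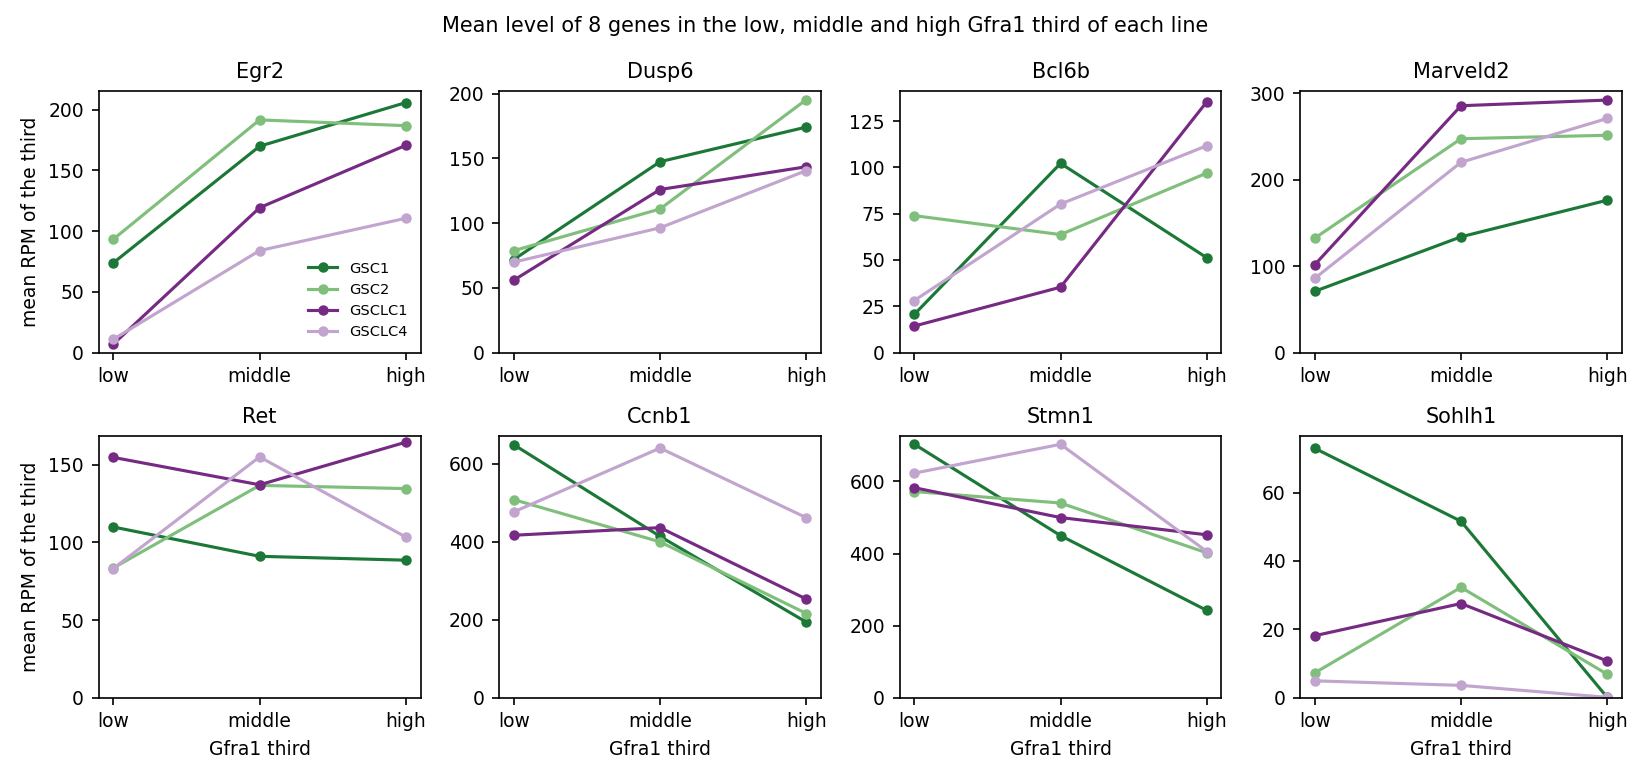
Mean RPM of 8 genes in the low, middle and high Gfra1 cells of each line (points joined by lines, colored by line). Dusp6 and Marveld2 are in rising order from low to high in all 4 lines, Ret has no common order, and Ccnb1 is lower in the high than in the low cells of all 4 lines, by little in GSCLC4.

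Over all ranked cells, likeness to Gfra1 was measured as the mean over the 4 lines of the Spearman correlation within a line, for 8920 genes above 0 in at least 50% of cells. Cells of a line share medium and depth range, and no p is given. Marveld2 was the most alike (0.46), followed by Abr (0.42), Egr2 (0.40), Asnsd1 (0.38), Bcl6b (0.38), Tbc1d16 (0.34), Tmem132e (0.34), Ccdc115 (0.34), Rnf17 (0.34) and Ahi1 (0.34). The least alike were Arfip2 (-0.41), Heatr2 (-0.40), Plin2 (-0.37), Cbln1 (-0.37) and Cycs (-0.37). Over all genes the percentiles 1 and 99 were -0.25 and 0.25, and the mean correlations named here serve only to rank the genes. For Marveld2 the correlations by line were 0.28, 0.53, 0.47 and 0.57, and for Egr2 0.19, 0.16, 0.66 and 0.58, weaker in both GSC lines.

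Tbc1d16, a GTPase-activating protein for Rab proteins, had line means of 31.02, 58.3, 67.2 and 36.9 RPM in the high and 0.521, 4.96, 60.7 and 19.5 RPM in the low cells. Ahi1, a protein of the primary cilium, had 17.0, 50.6, 48.7 and 33.2 RPM in the high and 9.73, 7.19, 12.9 and 27.3 RPM in the low cells. Asnsd1 had 152, 194, 171.6 and 191 RPM in the high and 158.6, 94.6, 75.3 and 99.5 RPM in the low cells, with GSC1 nearly level. Plin2, a coat protein of lipid droplets, had 24.6, 0, 6.91 and 23.7 RPM in the high and 24.9, 16.3, 42.7 and 34.4 RPM in the low cells, and Arfip2, a binding partner of ARF and RAC proteins, 2.11, 27.8, 11.2 and 27.9 RPM in the high and 48.4, 48.6, 40.3 and 57.0 RPM in the low cells. The adjusted p of these 5 genes was at least 0.864 in limma.

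Germ cell genes were close to level. Of 22 tested genes of the RNA-binding and piRNA list 15 had positive differences (median 0.11, and 0.015 without GSCLC4), 2 were higher at the unadjusted threshold (Ddx4 and Rnf17) and 0 lower. Over all tested genes 2.94% were higher at that threshold. Ddx4 had a log2 difference of 0.35 ± 0.13 and Dazl of -0.0045 ± 0.097. Rnf17, a Tudor protein of the piRNA pathway, had 151.1, 54.8, 79.98 and 205 RPM in the high and 50.7, 42.8, 76.9 and 65.1 RPM in the low cells (log2 0.90 ± 0.34). Of 17 tested meiosis genes 5 had positive differences (median -0.18, and -0.081 without GSC1), with 0 at the unadjusted threshold. Ldhc, a lactate dehydrogenase of spermatocytes, had 2.85, 23.1, 12.1 and 23.5 RPM in the high and 0.0649, 6.73, 1.32 and 9.15 RPM in the low cells (log2 1.81 ± 0.77), and Sox2, a pluripotency factor, 25.2, 2.03, 154.9 and 63.2 RPM in the high and 8.88, 0.0703, 61.2 and 36.97 RPM in the low cells (log2 1.25 ± 0.52). The difference in Sox2 was 0.048 when cells were ranked after depth, detected genes and spike-ins.

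Immediate early genes were mixed. Of 14 tested, 9 had positive differences (median 0.26, and -0.066 without GSC1), Egr2 and Myc were higher and Egr4 was lower at the unadjusted threshold. Myc, a growth factor response gene, had 18.5, 18.7, 38.4 and 74.9 RPM in the high and 19.4, 3.68, 0.258 and 0.0304 RPM in the low cells (log2 3.29 ± 0.93, adjusted p = 0.864), nearly level in GSC1. Ranked after depth, detected genes and spike-ins, the difference in Myc was 0.42. Klf6, a zinc finger factor, had a log2 difference of -1.24 ± 0.88. The summed level was higher in 4 of 4 lines, 1085, 1065, 530.1 and 714 RPM against 617, 836, 389 and 604 RPM (exact permutation p = 0.13).

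Metabolic and stress lists had small medians. Oxidative phosphorylation had 8 of 28 positive differences (median -0.11) with Cycs, Cox5a and Atp5b lower at the unadjusted threshold, and its summed level was lower in 4 of 4 lines, 11268, 11299, 11532 and 10683 RPM against 11479.5, 12777, 12820.4 and 11945 RPM (exact p = 0.13). Heat shock and chaperonin genes had 4 of 17 positive (median -0.11), and their sum was also lower in 4 of 4 lines (exact p = 0.13). Hspb1, a small heat shock protein, had a log2 difference of -2.02 ± 1.07. Glycolysis had 13 of 17 positive (median 0.21, and 0.062 without GSC2), with Ldha higher at the unadjusted threshold. The p53 list had 8 of 16 positive (median -0.12, and 0.024 without GSC2), with Ccng1 and Plk2 lower. Plk2 and Phlda3, both p53 targets, had log2 differences of -2.19 ± 0.88 and -1.64 ± 0.93. Ribosomal protein genes had 11 of 32 positive (median -0.026). Of 13 tested D-type cyclins, Myc genes and CDK inhibitors 5 were positive (median -0.16), and Cdkn1c, a CDK inhibitor, had 0.112, 4.13, 21.3 and 18.6 RPM in the high and 51.3, 3.75, 38.6 and 30.8 RPM in the low cells (log2 -1.74 ± 0.85).

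Marker lists of other cells were read for RNA from outside the germ line. The 16 fibroblast and feeder genes summed to 66.99 to 3485 RPM in single high cells and 117.2 to 1797 RPM in low cells, with 3 of 10 tested members positive (median -0.27, and 0.34 without GSCLC1) and Lum at 0 (exact p = 0.625). Lgals1, a galectin also made by germ cells, had 464, 289.8, 36.5 and 128 RPM in the high and 527, 490.2, 128 and 159.3 RPM in the low cells (log2 -0.76 ± 0.25), and Sparc a log2 difference of -1.47 ± 0.77. Sertoli genes summed to 0 to 565 RPM in high and 0.389 to 364 RPM in low cells (5 of 17 tested, 3 positive), and Aard, the member that was lower at the unadjusted threshold, had 0.0580, 0, 0.214 and 0.0331 RPM in the high and 12.4, 0, 5.85 and 35.6 RPM in the low cells. Leydig and peritubular genes reached 379 RPM in high and 270.2 RPM in low cells (2 of 15 tested). Blood and endothelial genes reached 137.3 and 92.8 RPM with Lyz2, Csf1r and Hba-a1 at 0, and Kdr, a VEGF receptor, had 15.1, 19.6, 4.66 and 22.04 RPM in the high and 0.0324, 0, 10.5 and 1.66 RPM in the low cells (log2 2.61 ± 1.00). The part of these RNAs in the values above was not tested.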

How the data were processed

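The authors deposited 1 table of expression signal, in RPM, for 26218 genes and 92 spike-in RNAs. The build mm10 and the tools TopHat 1.4.1, Cufflinks 2.2.0 and cutadapt 1.3 are named per the submitters' processing notes; the counting of reads that map to several loci was not given in the sources used here. One read was set equal to the commonest non-zero value of a cell, which made 85.6% to 92.4% of its values whole reads within 0.05 read and gave the depth. This share was too low for a count model. Empty spike-in entries (6440) were read as 0.

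Cells were ranked by Gfra1 within each line, and 1 value per line and group, log2(mean RPM + 1), entered limma 3.58.1 in R 4.3.3 (lmFit, eBayes with trend, line as block). All genes but Gfra1 were tested if their mean over the 8 values reached 5 RPM, with Benjamini-Hochberg adjustment over all 10266 and a threshold of 0.05. Cells are not replicates, so the line is the unit, and p-values measure the spread between 4 lines, of which the labels call only GSC2 independently derived. The high and low values are paired because they come from the same line. In GSC1 they came mostly from different runs of serial numbers, and whether these runs shared a culture is not given in the labels. Cell measures were compared by a two-sided exact permutation test that flips the signs of the 4 line differences of medians. The fit was tested on simulated data. Gene positions are those of RefSeq on GRCm38.p6 (mm10), with Entrez identifiers matching for 24619 of 26218 genes.

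The cells, the 26 gene lists and the rules were chosen with earlier results of these data known. Genes named were the 12 per direction with the smallest p among those at 20 RPM or more in the higher group with 1 direction in 4 of 4 lines (0 passed the threshold), a fixed set of stem cell and progenitor genes, up to 3 members per list by size of difference, and the 10 most and 5 least like Gfra1. Members of lists named with an unadjusted p, and genes named as absent markers, were added after their values were seen. Genes the rule names that are absent from the text are not reported here. Alternatives covered pseudocounts of 10 and 0.1, scaling, the filter, means or medians over cells, the variance trend, the block, the share of cells taken, the ranking, the left-out cell and each line.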

Additional observations from a re-analysis of the deposited data

Results flagged for a closer look

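For 79 genes named in the report the log2 difference between Gfra1-high and Gfra1-low cells was compared across the 4 lines, and in 6 genes 1 line lay apart from the other 3 by Dixon's test at its 95% critical value for 4 values. Chance alone puts about 1 in 20 such groups past that value.

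In GSC1, Cdkn1c, a CDK inhibitor, had a difference of -5.56 against -0.83 to 0.11 in the other lines. Ccnd2, a D-type cyclin, had 1.03 in GSC1 against -0.29 to -0.18 elsewhere. In GSC1 the high and low cells also came mostly from different runs of serial numbers, and the part of the run in these values was not tested.

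In GSC2, Cbln1, a secreted synapse organizer, had -3.43 against -1.96 to -1.81, the same direction in all lines. Zc3hav1l, a relative of the zinc finger antiviral protein, had 0.14 in GSC2 against 2.13 to 2.51. In GSCLC4, Mycn, a MYC family factor, had 0.39 against -1.18 to -1.10, and Rbp4, a retinol carrier, had -5.11 against -0.64 to -0.11.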

How the results depend on the processing

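With 4 lines as units, a difference needs to be large and alike in all lines to pass, and 3′-end signal from single cells leaves low genes at 0 in many cells. The count of called genes was 0 by limma in 19 of the 20 alternatives and 1 for the top against the bottom 25% of cells (Marveld2), and without the replicate block 0 genes were called and 448 had an unadjusted p under 0.05. Leaving out each line in turn gave 0 calls each time. The cause of the changes listed here was not tested.

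Of 1536 gene values under the alternatives 1507 kept the direction, and 67 of 79 genes had no reversal. For the top against the bottom 50% of cells the depth difference turned to -21081 reads and Gfra2 to 0.12; leaving out a line moved the depth difference between 91894 and 362128 reads. The spike-in difference was -1131 RPM without GSC1 and 4138 RPM at the most (without GSCLC4). The median of the G2 and M phase list became 0.037 when ranked after the cell cycle lists.

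Of the 26 gene lists, 11 kept the sign of their median under all 20 alternatives. They were the stem-state, ERK feedback, GDNF-induced, surface marker, progenitor, spermatid (6 tested), pluripotency, blood and endothelial (2 tested), heat shock, oxidative phosphorylation and D-type cyclin lists. The other 15 turned under at least 1, the GDNF receptor list under 9 and the primordial germ cell list under 8 (-0.42 for the top against the bottom 25% of cells), and the meiosis list became 0.051 for the top against the bottom 50%.

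Other reversals were in single genes. Leaving out each line in turn, Gfra2 ran from -1.13 (without GSCLC4) to 0.32 (without GSC1) and was 0.0055 without GSC2, Pou3f1 from -0.80 (GSC2) to 0.17 (GSCLC4), Shisa6 from -0.29 (GSC1) to 1.99 (GSCLC1), Ccnd2 from -0.25 (GSC1) to 0.19 (GSC2), and Dazl from -0.17 (GSC1) to 0.080 (GSCLC4), with 0.023 without GSC2 and 0.046 without GSCLC1. With means of log2 over cells Zbtb16 turned to -0.088 and Dmrtb1 to 0.045. With medians over cells Upp1 turned to 0.036, Dmrtb1 to 0.85, Dazl to 0.024, Phlda3 to 0.35, Ptma to 0.024, Foxo1 to -0.18 and Klf6 to 0.0020. Gfra2 was 0.40 at a pseudocount of 0.1. The top against the bottom 25% gave Gfra2 0.16, Dazl 0.0081 and Foxo1 -0.052. Ranked after depth, detected genes and spike-ins, Dazl was 0.023 and Foxo1 -0.0014. Foxo1 was also -0.024 after the cell cycle lists, -0.053 with GSC1 ranked within runs and -0.031 with spike-in scaling. With the left-out GSC1 cell, Ccnd2 was -0.024 and Dazl 0.011.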

Other observations

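Lists of earlier and later germ cells gave few tested members. Of 18 pluripotency genes 7 were tested and 5 had positive differences between Gfra1-high and Gfra1-low cells (median log2 0.27, 0.040 without GSC2, with Sox2 higher at the unadjusted threshold), while Fgf4 and Nr0b1 were at 0 in all 70 cells. Of 14 primordial germ cell genes 9 were tested and 5 had positive differences (median 0.21, -0.045 without GSCLC1), with 0 at the unadjusted threshold in either direction. Of 18 spermatid genes 6 were tested and 4 had positive differences (median 1.13, 0.65 without GSCLC4), and 8 were at 0 in all 70 cells. Ldhc was the 1 member higher at the unadjusted threshold.

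The summed level of the surface markers was higher in 4 of 4 lines, with medians of 1781, 1666, 1366 and 1979.6 RPM in the high and 1390, 1541, 1237 and 1717 RPM in the low cells. That sum leaves out Gfra1 itself, which chose the cells (exact permutation p = 0.13, the smallest possible). The heat shock and chaperonin sum had medians of 12428, 12169.5, 13812 and 13963 RPM and 13533, 14351, 14961 and 14645 RPM.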
